A study of Mus musculus with 34 samples.

Results

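The mRNA levels of 9 genes that bind or move zinc were examined in kidneys from 34 mice. The genes were taken from a fixed list of names, and all 9 of the 23509 genes in the count tables that carried these names were found, had reads in every library and passed the filter on low counts, which left 15644 genes for testing. They comprise the metallothioneins *Mt1* and *Mt2*, the zinc exporters *Slc30a1* and *Slc30a4*, and the zinc importers *Slc39a4*, *Slc39a5*, *Slc39a8*, *Slc39a10* and *Slc39a14*. Polyadenylated RNA from whole kidney was sequenced at postnatal day 28 (P28) in 3 groups on the C57BL6 background. *Pkd2*-KO mice (spelled Pdk2KO in the sample labels) were injected subcutaneously with 20 mg per kg of RGLS4326 (n = 11) or with PBS (n = 11) on P10, P11, P12 and P19, and untreated non-transgenic mice of the same strain and age (UNT, n = 12) served as controls. RGLS4326 inhibits the microRNA miR-17, to which this short synthetic oligonucleotide is complementary, and the model was made with floxed *Pkd2* alleles and a *Pkhd1*-driven Cre recombinase, so the deletion is directed to kidney tubules and other cells keep the gene. The groups allow a disease contrast (PBS vs UNT), a treatment contrast (RGLS4326 vs PBS) and a treated against normal contrast (RGLS4326 vs UNT). The paper also had mice given a control oligonucleotide, but none are among these 34 mice. Effects of miR-17 inhibition and of an injected oligonucleotide as such therefore cannot be told apart. Injection likewise cannot be told apart from genotype in PBS vs UNT.

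Cells keep free zinc very low. Metallothioneins are small, cysteine-rich proteins that hold zinc and copper, SLC30 (ZnT) proteins move zinc out of the cytosol, across the plasma membrane or into vesicles, and SLC39 (ZIP) proteins move it in. The zinc-sensing transcription factor MTF1 binds metal response elements near its targets, of which metallothionein genes and *Slc30a1* are the best known, and metallothioneins are also induced by glucocorticoids, cytokines and oxidative stress. In the kidney, the proximal tubule takes up filtered metals and metallothionein.

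Libraries held between 17603122 and 54981992 reads in genes. *Pkd2*, the targeted gene, ranged from 219.6 to 338 CPM (gene counts divided by the library's reads in genes and scaled by the trimmed mean of M values, per 1000000 reads) in UNT, from 98.0 to 214.5 CPM in PBS and from 170 to 237 CPM in RGLS4326 mice, and was lower in PBS than in UNT (log2 fold change -0.78 ± 0.09 (SE), adjusted p = 1.396e-09, edgeR). *Pkd2*, which the paper names as a direct miR-17 target, was also higher in RGLS4326 than in PBS mice (0.39 ± 0.09, adjusted p = 0.00439, edgeR). Markers of kidney epithelium were present in every group, since none of the 8 proximal tubule, 4 thick ascending limb or 6 collecting duct markers was at 0 in every library of a group. Cell makeup differed widely between groups. The summed level of the 8 proximal tubule markers was 9965 to 13070 CPM in UNT, 1068 to 3197 CPM in PBS and 1936 to 3482 CPM in RGLS4326 mice, and that of the 6 macrophage markers was 81.2 to 148 CPM, 519.6 to 1390 CPM and 474.5 to 940 CPM. In whole kidney, fewer cells of a type and less RNA per cell cannot be told apart. Of the reads that aligned uniquely, 12.9% to 14.9% fell in no gene in UNT and 6.08% to 11.0% in PBS libraries. In RGLS4326 libraries that share was 5.82% to 10.9% in 7 mice and 13.9% to 14.6% in the other 4 (replicates 5, 6, 7 and 11).

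The kidney of diseased mice differed from normal kidney in all 9 genes. *Mt1*, *Mt2*, *Slc39a4* and *Slc39a10* were higher in PBS than in UNT mice, and *Slc30a1*, *Slc30a4*, *Slc39a5*, *Slc39a8* and *Slc39a14* were lower (edgeR quasi-likelihood test, adjusted p under 0.05). The largest increases were 9.79-fold for *Slc39a4* and 5.65-fold for *Mt2*, and the largest decrease was 4.56-fold for *Slc39a5*. Most of the kidney transcriptome moved in this contrast, with 43.1% of the genes tested called higher and 39.0% called lower, so that a count of 4 higher and 5 lower of 9 is near the background. The median log2 fold change of the 9 genes was -0.36 and that of all genes tested was 0.04. Under RGLS4326, *Slc30a1* and *Slc30a4* were higher than under PBS and *Slc39a4* was lower, against a background of 15.3% of genes called higher and 18.5% called lower. The other 6 genes did not pass the test, and the median over the 9 genes was 0.17 against 0.00 over all genes. The 3 calls were in the direction opposite to the disease contrast for each gene, but both contrasts share the PBS mice.

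**Figure D1:**
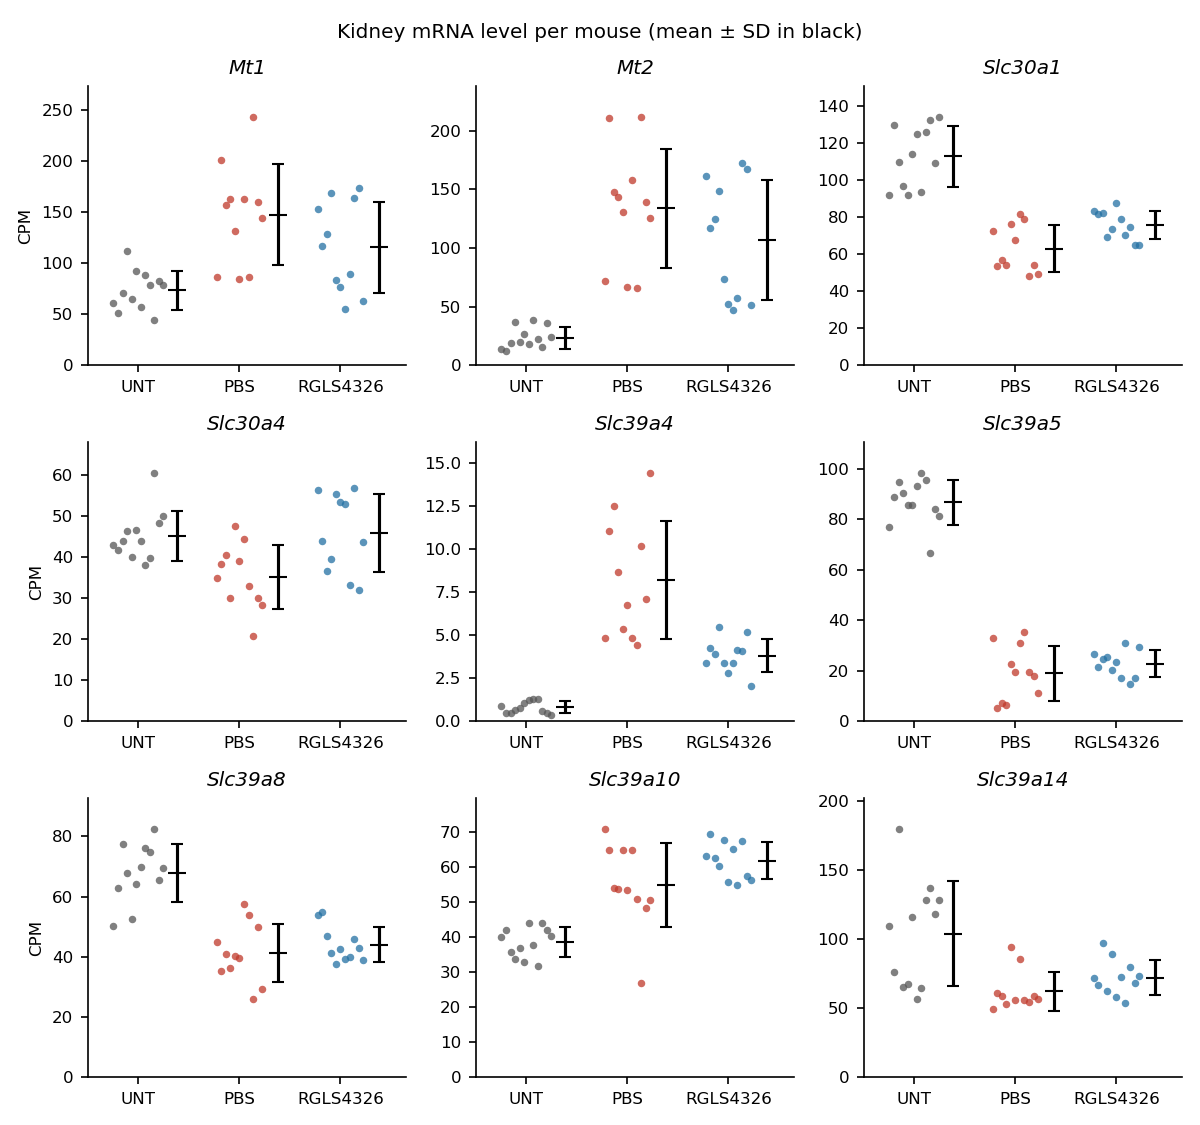
CPM (vertical axis, from 0) of the 9 genes in each of the 12 UNT, 11 PBS and 11 RGLS4326 mice (points), with the mean ± SD in black. *Mt2* and *Slc39a4* in UNT lie below all other mice, *Slc39a5* in UNT lies above all other mice, and *Slc39a5* in PBS spans 5.24 to 35.4 CPM.

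**Figure D2:**
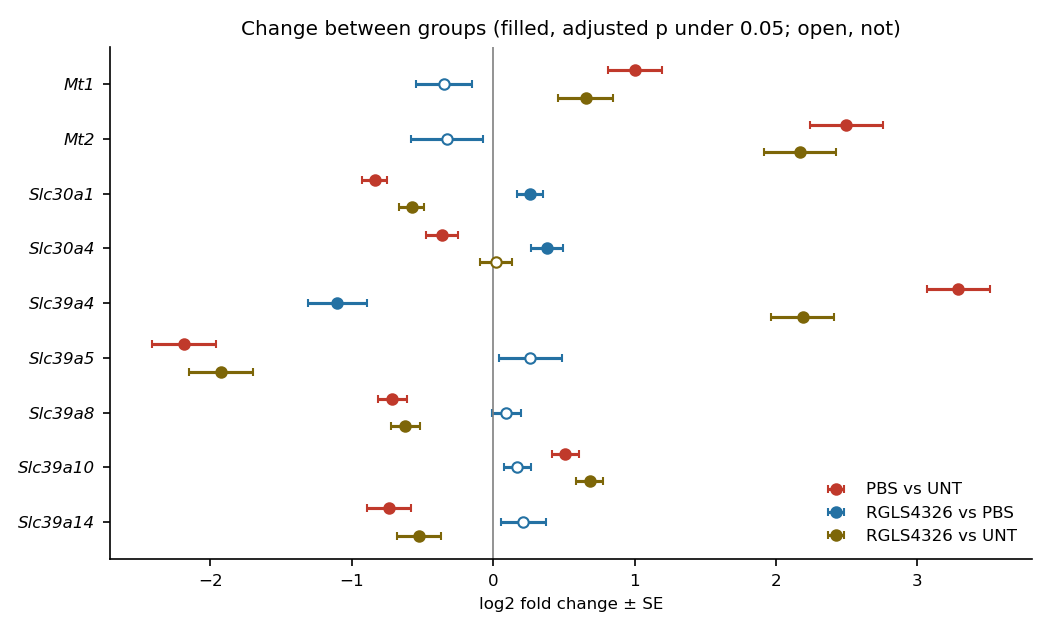
The log2 fold change ± SE of the 9 genes (horizontal axis) in PBS vs UNT, RGLS4326 vs PBS and RGLS4326 vs UNT, with filled circles for an adjusted p under 0.05. *Slc39a4* has the largest change in the disease contrast (3.29) and in the treatment contrast (-1.10).

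*Mt1* and *Mt2* mRNA was higher in the diseased kidney, with a larger fold change for *Mt2*. *Mt1* lay between 44.2 and 112 CPM in UNT mice, with a median of 74.5 CPM. It lay between 84.3 and 244 CPM in PBS mice, with a median of 157 CPM, and between 55.7 and 174 CPM in RGLS4326 mice, with a median of 118 CPM. The 3 lowest PBS mice (84.3 to 87.0 CPM) fell within the UNT range and the other 8 lay above it. Means were 73.7 ± 19.2 CPM (SD, n = 12), 147.5 ± 49.5 CPM (n = 11) and 116 ± 44.5 CPM (n = 11). *Mt1* was 2.003-fold higher in PBS than in UNT (log2 fold change 1.002 ± 0.19 (SE), adjusted p = 1.541e-05), with all 11 PBS mice above the UNT mean. In a fit that also held each library's percentage of reads in no gene, the difference was 0.18 and was not called (adjusted p = 0.566), and that between RGLS4326 and UNT was 0.10 (adjusted p = 0.686). This percentage did not overlap between PBS and UNT libraries. In the disease contrast of this fit, here and for the genes below, it and the group therefore cannot be told apart.

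*Mt2* lay between 12.0 and 38.7 CPM in UNT mice, with a median of 21.0 CPM. In PBS mice it lay between 65.6 and 212 CPM, with a median of 139 CPM, and in RGLS4326 mice between 47.0 and 172 CPM, with a median of 117 CPM. No UNT mouse reached the lowest mouse of the other groups. *Mt2* was 5.65-fold higher in PBS than in UNT (2.50 ± 0.26, adjusted p = 6.025e-11), or by 1.62 on the log2 scale in the fit that held the percentage of reads in no gene (adjusted p = 0.000262). Ranges that did not overlap between PBS and UNT were common, being found for 42.5% of all genes tested and for 4 of the 9 genes here (*Mt2*, *Slc39a4*, *Slc30a1* and *Slc39a5*).

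Neither metallothionein passed the test for a treatment effect. *Mt1* was 1.27-fold lower in RGLS4326 than in PBS mice (log2 fold change -0.35 ± 0.20, adjusted p = 0.159) and *Mt2* was 1.25-fold lower (-0.33 ± 0.25, adjusted p = 0.308), each with 7 of 11 treated mice below the PBS mean. Names of the libraries are numbered in 3 series, and these treatment differences were unequal between them. The log2 ratio of group means for *Mt1* was -0.06 in series 1, -0.92 in series 2 and -0.37 in series 3, and for *Mt2* it was -0.06, -1.12 and -0.27. The 3 RGLS4326 mice of series 2 are replicates 5, 6 and 7, which with replicate 11 had the highest share of reads in no gene. These 4 mice had 55.7 to 83.4 CPM of *Mt1*, while the other 7 had 89.5 to 174 CPM. Without these 4 libraries, a choice made after the values were seen, the difference was -0.05 for *Mt1* and 0.02 for *Mt2*. Compared with UNT, *Mt1* remained 1.57-fold higher (0.65 ± 0.19, adjusted p = 0.00263) and *Mt2* 4.51-fold higher (2.17 ± 0.26, adjusted p = 1.612e-09) in RGLS4326 mice.

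The balance between the metallothioneins differed between normal and diseased kidney. The ratio of *Mt2* to *Mt1* counts in a mouse does not depend on library scaling. It was 0.223 to 0.436 in UNT mice, with a median of 0.307, whereas it was 0.754 to 1.05 in PBS mice, with a median of 0.870, and 0.643 to 1.05 in RGLS4326 mice, with a median of 0.880. No UNT mouse overlapped with either *Pkd2*-KO group. The mean log2 ratio was higher by 1.52 in PBS than in UNT (two-sided permutation test, 100000 resamples, p = 2e-05, the smallest they can give, adjusted over 3 comparisons p = 3e-05), and this difference was 1.84, 1.44 and 1.30 within series 1, 2 and 3. RGLS4326 and PBS mice differed by -0.01 in this log2 ratio (permutation p = 0.857), less than the SD of 0.14 between PBS mice. This ratio was chosen after the values of both genes had been seen.

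*Mt1* and *Mt2* varied together from mouse to mouse. After subtraction of group means from log2(CPM + 1), Pearson's r was 0.95 and Spearman's rho was 0.95 over 34 mice (permutation within groups, p = 1e-05 for each, the smallest 100000 resamples can give, adjusted over 6 relations p = 3e-05 and 6e-05). Without the 2 mice farthest from the median of *Mt1*, r was 0.94, and within series 1, 2 and 3 it was 0.96, 0.95 and 0.94. Values of *Mt1* in PBS mice left a gap between 87.0 and 132 CPM, and in RGLS4326 mice between 89.5 and 118 CPM. A cut at 100 CPM was set after these values were seen, and the 3 PBS and 5 RGLS4326 mice below it were not tested. Within the mice above 100 CPM, which are also part of the whole groups, r was taken again. It was 0.93 in 8 PBS mice (Spearman's rho 0.86, exact permutation p = 0.00149 for r and 0.0107 for rho, adjusted p = 0.00179 and 0.0129). In 6 RGLS4326 mice it was 0.92, but rho was 0.71 (exact permutation p = 0.0236 for r and 0.136 for rho, which are also the adjusted values). In 12 UNT mice r was 0.87 and rho was 0.92 (permutation p = 0.00029 and 0.0001, adjusted p = 0.000435 and 0.0002). The next most similar genes over the 34 mice after subtraction of group means were *Sphk1*, a sphingosine kinase, with r = 0.82 to *Mt1* and 0.75 to *Mt2*, the helicase gene *Ddx28* with r = 0.79 to *Mt1*, and the interleukin receptor gene *Il4ra* with r = 0.74 to *Mt2*. These values are descriptive, and libraries also differed in depth and composition.

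**Figure D3:**
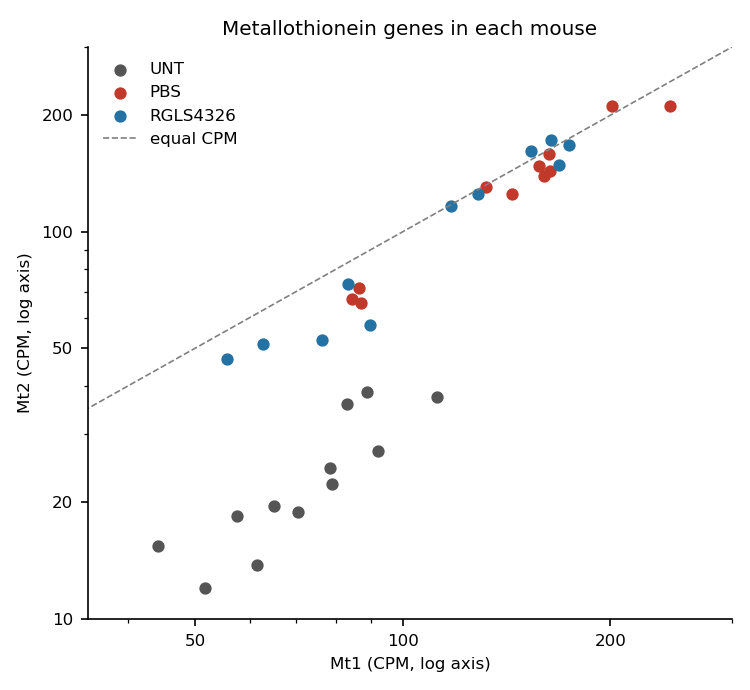
*Mt1* (horizontal, log axis) against *Mt2* (vertical, log axis) in CPM for each of 34 mice, with a dashed line at equal CPM. UNT mice lie well below the line at an *Mt2* to *Mt1* ratio of 0.223 to 0.436, and PBS and RGLS4326 mice share a band close to it, at 0.643 to 1.05.

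Both genes lie side by side on the plus strand of chromosome 8 (GRCm38), *Mt2* at chr8:94172664-94173568 and *Mt1* at chr8:94179082-94180327, with 5513 bases between them. Exons of *Mt2* overlap an antisense gene by 432 bases, and because no source used here gives the strand setting of the counting, reads of both cannot be told apart. The promoters are shown because these neighbours moved together. Each RefSeq window (GRCm38.p6, from 250 bases before to 50 bases after the start) is written 5′ to 3′ on the gene's strand, with capitals marking the core of the metal response element (TGCACNC or TGCGCNC on either strand), at chr8:94172368-94172667 for *Mt2* and chr8:94178839-94179138 for *Mt1*.
Mt2: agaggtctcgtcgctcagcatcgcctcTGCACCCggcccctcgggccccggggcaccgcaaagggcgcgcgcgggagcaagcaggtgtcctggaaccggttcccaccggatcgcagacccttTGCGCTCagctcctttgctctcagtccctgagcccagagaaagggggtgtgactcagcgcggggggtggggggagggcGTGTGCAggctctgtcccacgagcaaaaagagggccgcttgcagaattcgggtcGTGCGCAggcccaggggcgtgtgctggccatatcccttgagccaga
Mt1: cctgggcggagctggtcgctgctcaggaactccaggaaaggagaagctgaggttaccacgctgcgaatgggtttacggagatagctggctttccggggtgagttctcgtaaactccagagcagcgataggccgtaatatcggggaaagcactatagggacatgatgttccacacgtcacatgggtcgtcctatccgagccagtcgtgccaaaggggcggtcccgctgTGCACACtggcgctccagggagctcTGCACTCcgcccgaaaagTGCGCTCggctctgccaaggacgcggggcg
The *Mt2* window held 4 cores spread over its length, and the *Mt1* window held 3, which began between 23 bases before and 20 bases after the annotated start of that window. Cores outside the windows were not counted. At least 3 cores were found in 1.97% and at least 4 in 0.517% of the 32851 promoter windows of the same length, and at least 1 in 25.7%. Among the other listed genes with a window, *Slc30a4* had 3 cores, *Slc30a1* had 2, *Slc39a8* and *Slc39a5* each had 1 in one of a pair of alternative promoters, and *Slc39a10* had 0 in both of its promoters. *Slc39a4* and *Slc39a14* were not analysed here. Of the genes with 3 cores, *Mt1* was higher and *Slc30a4* was lower in the disease contrast. A match is a match of letters, not a bound site, and the part of these matches in the differences was not tested.

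The mRNA of MTF1, the factor that reads these elements, differed less than that of the 9 genes in the disease contrast. *Mtf1* lay between 18.6 and 27.1 CPM in UNT, 20.8 and 30.8 CPM in PBS and 23.97 and 38.2 CPM in RGLS4326 mice, and its groups overlapped. It was 1.12-fold higher in PBS than in UNT (log2 fold change 0.16 ± 0.07, adjusted p = 0.0304), did not pass the test in the treatment contrast (0.13 ± 0.07, adjusted p = 0.138) and was 1.23-fold higher in RGLS4326 than in UNT (0.29 ± 0.07, adjusted p = 0.000248). The disease call was lost with DESeq2, with DESeq2 size factors in edgeR, with no filter on low counts, in series 1 and 3 alone, and in the fit that held the percentage of reads in no gene. Within series 1, 2 and 3 the log2 ratio of group means was 0.32, 0.23 and -0.04. Its exons overlap a gene on the opposite strand by 721 bases.

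Both zinc exporters were lower in PBS than in UNT mice and higher in RGLS4326 than in PBS mice. *Slc30a1* (chr1:191906767-191913247, plus strand) encodes ZnT1, the exporter of the plasma membrane. It lay between 91.8 and 134 CPM in UNT mice, with a median of 112 CPM. In PBS mice it lay between 48.2 and 82.0 CPM, with a median of 56.8 CPM, and in RGLS4326 mice between 65.1 and 87.6 CPM, with a median of 74.6 CPM. UNT mice lay above all others, and the RGLS4326 and PBS ranges overlapped. *Slc30a1* was 1.79-fold lower in PBS than in UNT (-0.84 ± 0.09, adjusted p = 1.703e-10). It was 1.20-fold higher in RGLS4326 than in PBS (0.26 ± 0.09, adjusted p = 0.0283), and each of the 11 treated mice exceeded the mean of the PBS group. It was 1.49-fold lower in RGLS4326 than in UNT (-0.58 ± 0.09, adjusted p = 5.325e-07). In the disease contrast *Slc30a1* was lower and *Mt1* higher. Both carry matches to the metal response element, and the part of these matches in the differences was not tested.

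*Slc30a4* (chr2:122681233-122702663, minus strand) encodes ZnT4, which loads zinc into vesicles. It lay between 38.2 and 60.6 CPM in UNT mice, with a median of 44.0 CPM, between 20.8 and 47.6 CPM in PBS mice, with a median of 34.9 CPM, and between 32.1 and 56.998 CPM in RGLS4326 mice, with a median of 44.0 CPM. All 3 groups overlapped. It was 1.28-fold lower in PBS than in UNT (-0.36 ± 0.11, adjusted p = 0.00376) and 1.30-fold higher in RGLS4326 than in PBS (0.38 ± 0.11, adjusted p = 0.0133), with 9 of 11 treated mice above the PBS mean. RGLS4326 and UNT mice had means of 45.9 ± 9.55 CPM (SD, n = 11) and 45.2 ± 6.01 CPM (n = 12), with a difference of 0.02 ± 0.11 (adjusted p = 0.870). The genes most like *Slc30a4* over the 34 mice after subtraction of group means were *Wdr26* (r = 0.94), *Xiap*, an inhibitor of caspases (r = 0.94), and *Gmfb* (r = 0.93). *Slc30a1* was most like *Slco4c1* (r = 0.81), *Slc7a12* (r = 0.80) and *Ptprd* (r = 0.79), and *Slco4c1* and *Slc7a12* encode membrane transporters.

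The treatment calls of both exporters were lost in some fits. Without the 4 RGLS4326 libraries with the most reads in no gene, the differences were 0.26 for *Slc30a1* and 0.28 for *Slc30a4*, and neither was called (adjusted p = 0.135 and 0.172), while calls over all genes fell from 2388 higher and 2892 lower to 179 and 153. With all libraries and the percentage of reads in no gene in the fit, the differences were 0.20 and 0.18 (adjusted p = 0.234 and 0.309), and calls over all genes were 80 higher and 65 lower. The call of *Slc30a1* was also lost on leaving out PBS replicate 2, 4 or 11 or RGLS4326 replicate 6 (highest adjusted p = 0.0585, edgeR), and over all 34 fits without 1 mouse the difference was 0.23 to 0.31. *Slc30a4* kept its call in all 34 fits (highest adjusted p = 0.0286). In the smaller fits of 1 series at a time, *Slc30a1* was called in none and *Slc30a4* in series 2, with differences of 0.39, 0.21 and 0.25 for *Slc30a1* and 0.23, 0.43 and 0.57 for *Slc30a4* in series 1, 2 and 3. In the disease contrast *Slc30a4* was -0.21, -0.07 and -0.82 within series 1, 2 and 3, and it was 0.12 and not called in the fit that held the percentage of reads in no gene (adjusted p = 0.509). Its disease call was also lost in the fits of series 1 alone (-0.24, adjusted p = 0.100) and series 2 alone (-0.10, adjusted p = 0.485). With library totals in place of scaling factors it was -0.06 and not called (adjusted p = 0.631). Exons of *Slc30a1* and *Slc30a4* overlap antisense or opposite-strand genes by 468 and 130 bases.

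Since RGLS4326 acts on miR-17, the 3′UTRs of the 9 genes were searched for matches to its seed (bases 2 to 8, in capitals).
mmu-miR-17-5p: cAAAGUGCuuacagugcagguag
Searching 1 3′UTR per gene, the longest in GENCODE M21, *Slc30a1* held 2 matches to all 7 seed bases and *Slc30a4* held 1. These are shown in 30-base windows with the match in capitals, because they belong to the listed genes that were higher in treated mice.
Slc30a1 first site: tgcaggactctGCACTTTgcacccaggaag
Slc30a1 second site: ttctttacaatGCACTTTctaacccatttt
Slc30a4 site: atttcaacctaGCACTTTgtatggctcttg
*Slc39a8* and *Slc39a14* each held 1 weaker match, to bases 2 to 7 of the microRNA followed by an A, and did not pass the test in the treatment contrast. No match was found for *Mt1*, *Mt2*, *Slc39a4*, *Slc39a5* or *Slc39a10*. *Mtf1*, which is not among the 9 genes, held the strongest kind of match, to bases 2 to 8 followed by an A. The paper includes *Mtf1* among the miR-17 target genes of its mouse signature. Here *Mtf1* did not pass the test in the treatment contrast (0.13 ± 0.07, adjusted p = 0.138, edgeR). Of 14193 tested genes with a 3′UTR, 21.2% held a match of any of these kinds and 4.26% the strongest kind. These shares do not account for length, and the 3′UTRs searched were 3492 bases in *Slc30a1*, 3946 in *Slc30a4*, 3197 in *Slc39a14*, 1618 in *Slc39a8* and 5457 in *Mtf1*, against 2409 in *Slc39a10* and 116 to 901 in the other 4 genes with no match. A match is a description of sequence, and binding was not measured.

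Among the importers, *Slc39a4* showed the largest change of the 9 genes in both contrasts, from a very low level. *Slc39a4* (chr15:76612383-76617384, minus strand) encodes ZIP4, the importer best known for intestinal zinc uptake. It lay between 0.393 and 1.32 CPM in UNT mice (7 to 52 reads), with a median of 0.738 CPM. In PBS mice it lay between 4.41 and 14.4 CPM (124 to 741 reads), with a median of 7.13 CPM, and in RGLS4326 mice between 2.05 and 5.48 CPM (51 to 193 reads), with a median of 3.94 CPM. UNT mice lay below all others. Of the 11 treated mice, 9 lay below the lowest PBS mouse, at 2.05 to 4.24 CPM, and the other 2 lay within the PBS range. *Slc39a4* was 9.79-fold higher in PBS than in UNT (3.29 ± 0.22, adjusted p = 9.756e-16) and 2.15-fold lower in RGLS4326 than in PBS (-1.10 ± 0.21, adjusted p = 0.00119), with all 11 treated mice below the PBS mean. The treatment difference was -1.15, -1.005 and -1.23 within series 1, 2 and 3, and -0.92 without the 4 RGLS4326 libraries with the most reads in no gene (adjusted p = 0.0405). It was not called in the smaller fits of series 1 alone (adjusted p = 0.0723) or series 3 alone (adjusted p = 0.262). In the fit that held the percentage of reads in no gene, the disease difference was 2.63 and the treatment difference -0.86 (adjusted p = 0.0453). None of the 9 genes had ranges that did not overlap between RGLS4326 and PBS, as was true of all but 0.0639% of genes tested. *Slc39a4* remained 4.56-fold higher in RGLS4326 than in UNT mice (2.19 ± 0.22, adjusted p = 5.189e-11). The genes most like it were *Tmbim1*, *Lcn2*, a marker of tubular injury, and *Nbl1*, each with r = 0.89 over the 34 mice after subtraction of group means.

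*Slc39a5* was the most reduced of the 9 genes. *Slc39a5* (chr10:128395931-128401229, minus strand) encodes ZIP5, an importer of basolateral membranes. It lay between 66.7 and 98.4 CPM in UNT mice, with a median of 87.2 CPM, between 5.24 and 35.4 CPM in PBS mice, with a median of 19.6 CPM, and between 14.7 and 31.0 CPM in RGLS4326 mice, with a median of 23.4 CPM. UNT mice were all above the others, and PBS replicates 2, 3 and 4 were the lowest of all mice, at 5.24 to 7.27 CPM. *Slc39a5* was 4.56-fold lower in PBS than in UNT (-2.19 ± 0.23, adjusted p = 6.564e-11) and did not pass the test between RGLS4326 and PBS (0.26 ± 0.22, adjusted p = 0.359). The spread between mice was 56.9% of the mean in PBS and 22.9% in RGLS4326 mice.

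Within the PBS group, *Slc39a5* and *Slc30a1* were higher and *Slc39a4* was lower in mice with more proximal tubule marker mRNA. For these 27 relations (9 genes in 3 groups, computed after the values were seen), the summed proximal tubule markers were compared with each gene on the log2(CPM + 1) scale by permutation. In PBS mice, *Slc39a5* rose with the markers (Pearson's r 0.95, Spearman's rho 0.91, permutation p = 2e-05 and 0.00027, adjusted p = 0.00054 and 0.00729, n = 11), and r without the 2 mice farthest from the median of the markers was 0.91. *Slc39a4* fell as the markers rose (r = -0.88, rho = -0.86, permutation p = 0.0009 and 0.00125, adjusted p = 0.0121 and 0.0169), with r = -0.93 without those 2 mice. *Slc30a1* rose with them (r = 0.84, permutation p = 0.0041, adjusted p = 0.0369), though its rho of 0.74 did not pass (permutation p = 0.0128, adjusted p = 0.115). These relations kept their sign within each series of PBS mice, where r was 0.88 to 0.99 for *Slc39a5*, -0.998 to -0.969 for *Slc39a4* and 0.963 to 0.998 for *Slc30a1*, in 3 or 4 mice each. No relation passed the adjustment in the RGLS4326 or UNT group, where the highest r was 0.70, for *Slc39a5* in RGLS4326 mice (permutation p = 0.017, adjusted p = 0.115). Whether relations differed between groups was not tested. In the disease contrast all 8 proximal tubule markers were lower, with a median log2 fold change of -2.82, beside -2.19 for *Slc39a5*. The part of these markers in the differences was not tested.

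**Figure D4:**
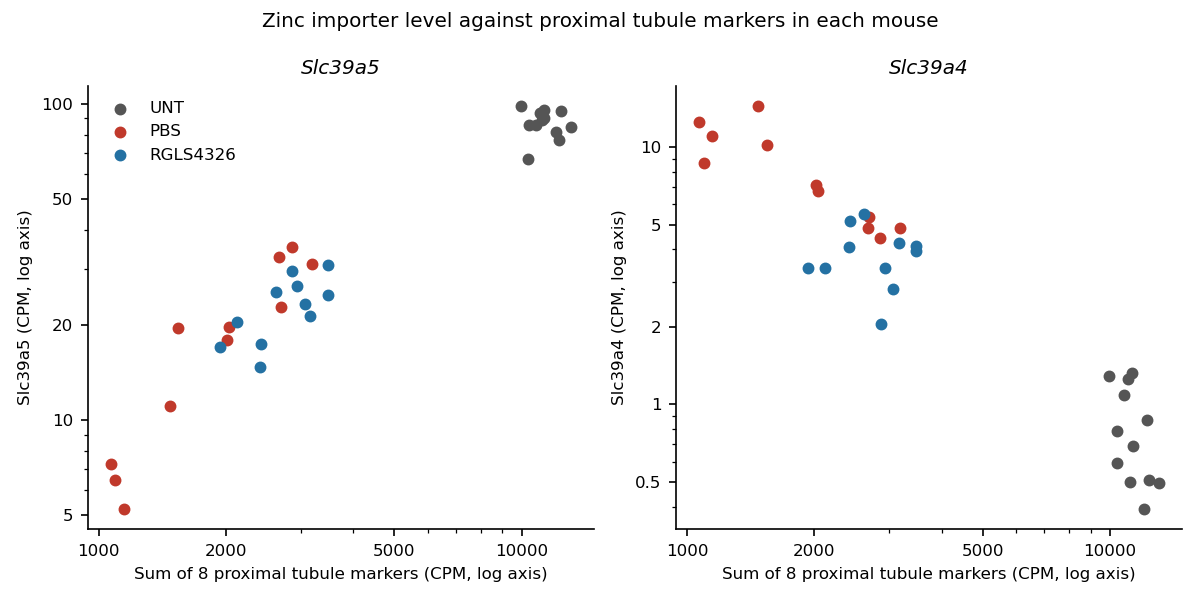
*Slc39a5* (left) and *Slc39a4* (right) in CPM against the summed CPM of 8 proximal tubule markers, 1 point per mouse, log axes. Within the PBS mice, *Slc39a5* rises and *Slc39a4* falls with the marker sum, and UNT mice stand apart at 9965 CPM and above.

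The remaining importers changed less. *Slc39a8* (chr3:135825279-135888572, plus strand) encodes ZIP8, which also carries manganese and cadmium. It lay between 50.1 and 82.4 CPM in UNT mice, with a median of 68.7 CPM, between 26.1 and 57.4 CPM in PBS mice, with a median of 40.1 CPM, and between 37.8 and 55.0 CPM in RGLS4326 mice, with a median of 42.4 CPM. The lowest UNT mice overlapped with the highest mice of the other groups. *Slc39a8* was 1.64-fold lower in PBS than in UNT (-0.71 ± 0.10, adjusted p = 9.625e-08) and did not pass the test between RGLS4326 and PBS (0.09 ± 0.10, adjusted p = 0.493).

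*Slc39a14* (chr14:70303469-70351425, minus strand) encodes ZIP14, which carries iron and manganese as well as zinc and is induced by interleukin-6 in liver. It lay between 56.7 and 180 CPM in UNT mice, with a median of 113 CPM, between 49.6 and 94.4 CPM in PBS mice, with a median of 56.5 CPM, and between 53.9 and 97.0 CPM in RGLS4326 mice, with a median of 72.3 CPM. UNT mice were spread widely, with 5 of them at 56.7 to 76.0 CPM, within the PBS range, and the other 7 at 110.0 to 180 CPM, above it. *Slc39a14* was 1.67-fold lower in PBS than in UNT (-0.74 ± 0.15, adjusted p = 5.027e-05) and did not pass the test between RGLS4326 and PBS (0.21 ± 0.16, adjusted p = 0.286). The disease difference was -0.93, -0.08 and -1.18 within series 1, 2 and 3, and it was not called in series 2 alone (adjusted p = 0.712) or in the fit that held the percentage of reads in no gene (-0.49, adjusted p = 0.0767).

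*Slc39a10* (chr1:46807544-46892852, minus strand) encodes ZIP10, an importer of the plasma membrane, and was, with *Slc39a4*, one of the 2 listed transporters that were higher in diseased kidney. It lay between 31.8 and 44.2 CPM in UNT mice, with a median of 38.9 CPM, between 27.0 and 70.8 CPM in PBS mice, with a median of 53.8 CPM, and between 54.8 and 69.5 CPM in RGLS4326 mice, with a median of 62.4 CPM. PBS replicate 9 was below all UNT mice, and the other 10 PBS mice were above them. *Slc39a10* was 1.42-fold higher in PBS than in UNT (0.51 ± 0.09, adjusted p = 7.01e-06), with 0.74, 0.64 and 0.16 within series 1, 2 and 3 (not called in series 3 alone, adjusted p = 0.461), and did not pass the test between RGLS4326 and PBS (0.17 ± 0.10, adjusted p = 0.153). In RGLS4326 mice it was 1.60-fold higher than in UNT (0.68 ± 0.09, adjusted p = 4.288e-08), and these groups did not overlap.

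Against UNT, the kidneys of RGLS4326 mice kept 8 of the 9 differences. *Mt1*, *Mt2*, *Slc39a4* and *Slc39a10* were higher (background 40.8% of genes tested) and *Slc30a1*, *Slc39a5*, *Slc39a8* and *Slc39a14* were lower (background 36.9%), with *Slc30a4* the exception. Ranges did not overlap for *Mt2*, *Slc39a4*, *Slc39a10*, *Slc30a1* and *Slc39a5*, 5 of 9 genes against 36.7% of all genes tested. *Slc39a5* was 3.80-fold lower (-1.92 ± 0.23, adjusted p = 1.365e-09), *Slc39a8* 1.54-fold lower (-0.62 ± 0.10, adjusted p = 1.557e-06) and *Slc39a14* 1.44-fold lower (-0.53 ± 0.15, adjusted p = 0.00249). The call of *Mt1* in this contrast was lost in series 2 alone (-0.10, adjusted p = 0.731), in series 3 alone (0.78, adjusted p = 0.062) and in the fit that held the percentage of reads in no gene (0.10, adjusted p = 0.686). The call of *Slc39a14* was lost with library totals in place of scaling factors (-0.21, adjusted p = 0.194), in series 1 alone (-0.56, adjusted p = 0.0726), in series 2 alone (-0.07, adjusted p = 0.824) and in the fit that held the percentage of reads in no gene (-0.37, adjusted p = 0.0903).

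Per kilobase of the principal transcript, *Mt1* was the most abundant of the 9 mRNAs by mean in every group, and *Mt2* overlapped with *Slc39a5* in UNT mice. In UNT mice the order by mean CPM per kilobase ran from *Mt1* (134 ± 34.9, SD) through *Mt2* (46.4 ± 18.2), *Slc39a5* (42.9 ± 4.38), *Slc30a1* (21.5 ± 3.12), *Slc39a14* (21.1 ± 7.70), *Slc39a8* (19.2 ± 2.72), *Slc30a4* (8.29 ± 1.10) and *Slc39a10* (7.01 ± 0.78) to *Slc39a4* (0.297 ± 0.12). *Mt1* did not overlap with *Mt2*, *Slc39a5* with *Slc30a1*, or *Slc39a8* with *Slc30a4*, and *Slc39a4* lay below all others, while the remaining neighbours in this order overlapped. In PBS mice *Mt1* (269 ± 90.2 CPM per kilobase) and *Mt2* (262 ± 99.8) overlapped with each other and lay above all other genes. The principal transcripts have 549 bases for *Mt1* and 511 for *Mt2*, while all annotated exons cover 1246 and 588 bases. In PBS and RGLS4326 mice the order of these genes therefore depends on the length used. *Slc39a5* had rank 3 of the 9 genes in UNT mice and rank 7 in PBS mice (9.41 ± 5.35 CPM per kilobase), where all neighbours from *Slc39a14* (12.7 ± 2.89) down to *Slc39a4* (2.98 ± 1.25) overlapped. In RGLS4326 mice *Mt1* and *Mt2* again led, at 211 ± 81.1 and 209 ± 100 CPM per kilobase, and *Slc39a4* (1.39 ± 0.36) lay below all others.

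The wider families of zinc genes were mixed in direction. Of the 19 other metallothionein, *Slc30* and *Slc39* genes, 14 passed the filter on low counts, and *Mt4*, *Slc30a3*, *Slc30a8*, *Slc30a10* and *Slc39a12* did not, with at most 17 reads in any library. In the disease contrast 5 of the 14 were higher and 7 were lower, with a median log2 fold change of -0.10, against 43.1% and 39.0% of all genes tested. The largest increases were in the importers *Slc39a6* (1.39 ± 0.07, adjusted p = 2.857e-20) and *Slc39a1* (1.26 ± 0.07, adjusted p = 2.227e-18). *Slc39a6* went from 11.9 ± 0.98 CPM (SD, n = 12) in UNT to 31.1 ± 4.199 CPM (n = 11) in PBS mice. The largest decreases were in *Slc39a2* (-2.07 ± 0.29, adjusted p = 7.61e-08), whose mean was 1.67 CPM in UNT and 0.394 CPM in PBS mice, and the vesicular exporter *Slc30a2* (-1.77 ± 0.16, adjusted p = 1.303e-12), at 57.6 and 16.9 CPM. *Mt3*, the other metallothionein that was tested, was also lower (-1.63 ± 0.26, adjusted p = 6.469e-07), with 0 to 33 reads in a library, and is named here after its values were seen. In the treatment contrast 3 were higher and 3 were lower, with a median of 0.00, against 15.3% and 18.5% of all genes tested. Among them were *Slc30a9* (0.23 ± 0.07, adjusted p = 0.0144) and *Slc30a5* (0.21 ± 0.07, adjusted p = 0.0176), which were higher, and *Slc39a1* (-0.25 ± 0.07, adjusted p = 0.00996) and *Slc39a7* (-0.17 ± 0.05, adjusted p = 0.0148), which were lower. None of these 6 changes exceeded that of *Slc39a1* in size. In the fit that held the percentage of reads in no gene, 0 of the 14 were called on treatment in either direction, and the fits of series 1, 2 and 3 alone called 1, 1 and 0 higher and 0, 4 and 0 lower. Over all genes, the fit with that percentage called 80 higher and 65 lower of 15644. Series 1 alone called 41 and 13 of 15737, series 2 called 2164 and 1901 of 15944, and series 3 called 0 and 0 of 15676.

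**Figure D5:**
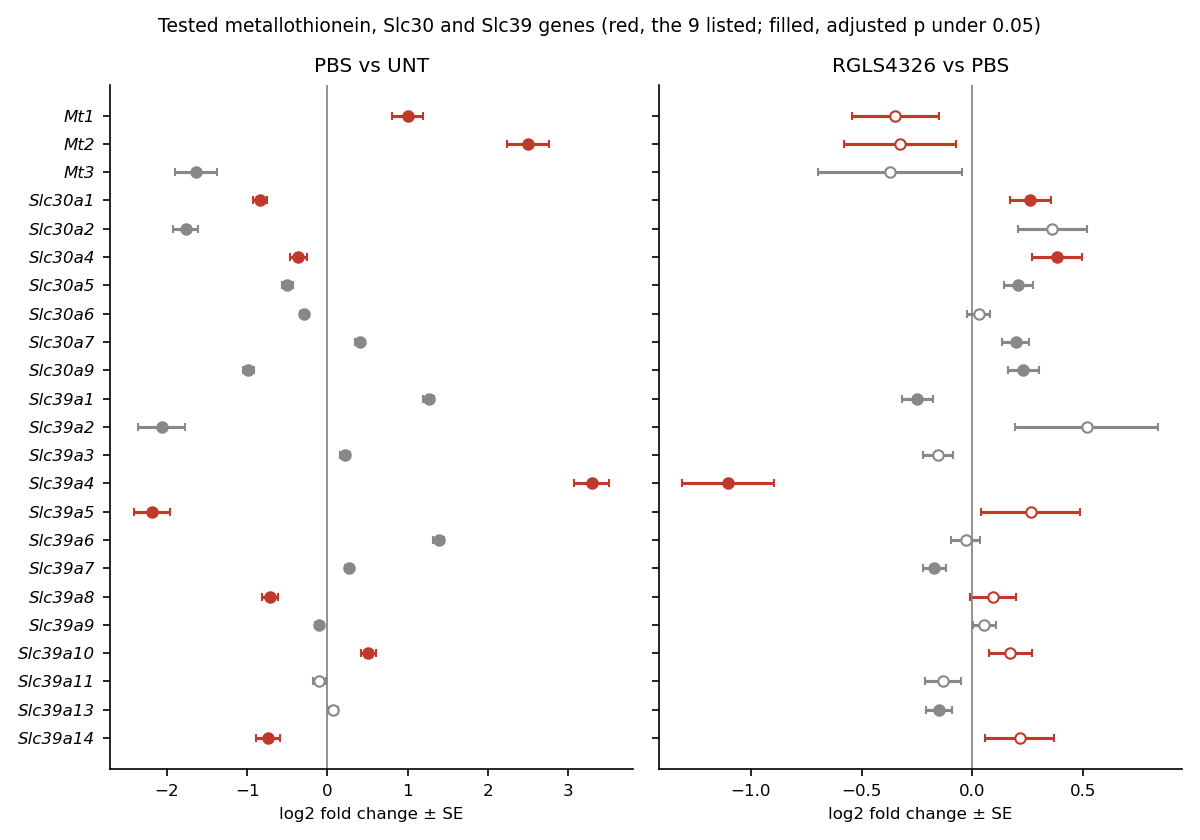
The log2 fold change ± SE (horizontal axes, on different scales) of the 23 tested metallothionein, *Slc30* and *Slc39* genes in PBS vs UNT (left) and RGLS4326 vs PBS (right), with the 9 listed genes in red, the others in grey, and filled circles for an adjusted p under 0.05. The importers *Slc39a4* (3.29), *Slc39a6* (1.39) and *Slc39a1* (1.26) are furthest to the right among the transporters in the left panel.

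Other lists that share inducers or metals with these genes held genes that were called in the disease contrast, in which 43.1% of all genes tested were higher and 39.0% lower, so that most of their counts are near the background. All 7 genes of the interleukin-6 and STAT3 response list were higher in PBS than in UNT (median log2 fold change 1.57), among them *Socs3*, an inhibitor of cytokine signalling (4.82 ± 0.15, adjusted p = 3.483e-25), and *Il6* itself (5.08 ± 0.38, adjusted p = 1.254e-14), which had 0 to 43 reads in a library, so that its fold change depends on the fit's prior count. Of these 7, *Osmr* was higher in the treatment contrast (0.32 ± 0.11, adjusted p = 0.0223) and the other 6 did not pass. In that contrast 15.3% of all genes tested were higher and 18.5% lower, so that 1 gene of 7 is near the background. The same shares apply to the treatment calls of the lists that follow. Of 6 glucocorticoid response genes, 4 were lower in PBS mice, including *Sgk1* (-1.73 ± 0.20, adjusted p = 1.016e-09) and *Zbtb16* (-1.11 ± 0.48, adjusted p = 0.0331), and *Nr3c1*, the receptor, was higher in the treatment contrast (0.41 ± 0.09, adjusted p = 0.00338). Of 7 oxidative stress response genes, 3 were higher and 3 lower. *Slc7a11* (1.87 ± 0.24, adjusted p = 7.955e-09) and *Hmox1* (1.27 ± 0.16, adjusted p = 9.374e-09) were higher, whereas the glutathione synthesis genes *Gclc* (-1.09 ± 0.17, adjusted p = 4.133e-07) and *Gclm* (-1.06 ± 0.10, adjusted p = 1.063e-11) were lower, and *Hmox1* was lower again in the treatment contrast (-0.56 ± 0.17, adjusted p = 0.0125).

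Copper and iron genes were also divided. Of 9 copper genes 4 were higher and 5 lower in PBS mice. Ceruloplasmin (*Cp*), the copper protein that oxidises iron, was higher (3.06 ± 0.14, adjusted p = 2.822e-20), from a mean of 60.8 CPM in UNT to 505.7 CPM in PBS mice, as was *Slc31a2* (1.16 ± 0.06, adjusted p = 3.551e-18). The copper chaperone *Ccs* (-1.17 ± 0.07, adjusted p = 5.208e-17) and its client *Sod1* (-0.93 ± 0.10, adjusted p = 6.368e-11) were lower. In the treatment contrast, in which 15.3% of all genes tested were higher and 18.5% lower, *Atox1*, another copper chaperone (-0.46 ± 0.12, adjusted p = 0.00783), and *Slc31a2* (-0.18 ± 0.07, adjusted p = 0.0318) were lower and the other 7 did not pass. Of 8 iron genes 2 were higher and 4 lower in PBS mice, including transferrin (*Trf*, 1.76 ± 0.12, adjusted p = 4.829e-16), the iron exporter gene *Slc40a1* (0.41 ± 0.08, adjusted p = 4.041e-05), the transferrin receptor gene *Tfrc* (-1.24 ± 0.16, adjusted p = 5.279e-09) and *Ireb2* (-0.84 ± 0.12, adjusted p = 1.358e-07). Against the same shares, 4 of the 8 iron genes were higher in the treatment contrast, with *Heph* (0.46 ± 0.09, adjusted p = 0.0018) and *Ireb2* (0.45 ± 0.13, adjusted p = 0.00886) at the top, and *Ftl1* (-0.41 ± 0.10, adjusted p = 0.00501) and *Trf* (-0.34 ± 0.12, adjusted p = 0.0241) were lower. In series 1 alone, 0 copper and 0 iron genes were called on treatment, with 41 higher and 13 lower over all genes. Series 3 alone called 0 genes of all tested.

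Markers of cell types also differed between groups, against the shares of all genes tested given above (43.1% higher and 39.0% lower in the disease contrast, 15.3% and 18.5% in the treatment contrast). All 6 macrophage markers were higher in PBS than in UNT (median 4.43), as were all 6 fibroblast markers (2.14) and all 5 markers of injured epithelium (4.47), while all 8 proximal tubule, 3 distal convoluted tubule (-2.70) and 4 podocyte (-1.25) markers were lower. In the treatment contrast 3 of 8 proximal tubule markers (median 0.50) and 4 of 4 podocyte markers (0.31) were higher, and 3 of 5 injury markers (-0.75) and 3 of 6 macrophage markers (-0.37) were lower. Lists of other cells were mixed in the disease contrast, with 1 higher and 3 lower of 4 thick ascending limb, 4 higher and 2 lower of 6 collecting duct, and 2 higher and 2 lower of 4 endothelial markers. On treatment, 3 of 4 endothelial markers (median 0.21) were higher, 2 of 6 collecting duct markers (-0.33) were lower, 2 of 4 thick ascending limb markers were higher and 1 was lower, and 1 of 6 fibroblast and 1 of 3 distal convoluted tubule markers were higher. The part of these markers in the differences of the 9 genes was not tested.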

How the data were processed

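Per the methods of the study and the labels, kidney RNA was made into TruSeq stranded mRNA libraries, and the authors trimmed reads with Trim Galore, aligned them to GRCm38 (mm10) with STAR and used HTSeq (0.6.1 in the submitters' processing notes) to count reads with a unique alignment. The deposited values are raw counts per gene symbol, 1 table per mouse, not normalized. The annotation and strand setting are not given in the sources used here. Rows that name no gene (reads in no gene were 5.82% to 14.9% of uniquely aligned reads) were left out of library sizes. All 34 libraries entered 1 edgeR quasi-likelihood fit (edgeR 4.0.16, R 4.3.3, TMM scaling, filterByExpr) with 3 groups and no covariate, tested on simulated data. Adjusted p is the two-sided Benjamini-Hochberg value over 15644 genes, with calls under 0.05. DESeq2 1.42.0 was an alternative. Nothing states how mice relate beyond the labels, so p-values measure the spread between these mice. The named genes are the 9 listed genes, of each pathway list up to 2 genes in each direction with the largest change called in the disease or treatment contrast, and the 3 genes most correlated with each metallothionein and with each listed gene called in both contrasts. The genes, lists and tests were chosen with earlier results of these data known. Replicate numbers of the labels did not pair mice. Levels per kilobase use the principal transcript in GENCODE M21. Permutations and figures used Python 3.11.15, scipy 1.17.1 and matplotlib 3.10.9. Libraries held 17603122 to 54981992 reads in genes, and the fewest reads of a listed gene were 7, for *Slc39a4* in a UNT mouse.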

Additional observations from a re-analysis of the deposited data

How the results depend on the processing

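Leaving out 1 mouse at a time kept every disease call of the 9 genes (4 higher and 5 lower in all 34 fits), and in the treatment contrast 1 to 2 genes were higher and 1 was lower. Against UNT, leaving out single RGLS4326 mice turned *Slc30a4* (-0.0139 to 0.066 over the 34 fits). Of 126 values from other alternatives, 118 kept call and direction in the disease contrast, 111 in the treatment contrast and 109 in the treated against normal contrast. In series 1 alone and in series 3 alone, 0 genes were higher and 0 lower on treatment; these fits called 41 and 0 genes higher and 13 and 0 lower in all. In series 2 alone, 3 genes were lower in the disease contrast, and 1 was higher and 3 lower on treatment, *Mt1* (-0.90) and *Mt2* (-1.10) among them. In the fit that held the percentage of reads in no gene, 3 were lower in the disease contrast and 0 higher on treatment, and *Slc30a4* turned to 0.12 in the disease contrast; that percentage did not overlap between PBS and UNT, so it and the group cannot be told apart there. Without the 4 RGLS4326 libraries with the most reads in no gene, 0 were higher on treatment and *Mt2* turned to 0.02. The cause of these changes was not tested. *Slc39a8* on treatment turned to -0.11 in series 2, where *Mt1* in RGLS4326 vs UNT turned to -0.10. *Slc30a4* in RGLS4326 vs UNT, 0.02 and not called, turned to -0.0145 with DESeq2 size factors, -0.0129 with DESeq2, -0.00491 with no filter, -0.0163 with only these groups, -0.0149 and -0.26 in series 1 and 3, and -0.0799 without the 4 libraries, and it was called with library totals (0.33), in series 2 (0.34) and with the percentage of reads in no gene (0.30). The log2 ratio of *Mt2* to *Mt1*, RGLS4326 minus PBS, turned to 0.0572 in series 1 and 0.025 in series 3. Pearson's r of *Mt1* and *Mt2* moved to 0.993 in UNT mice of series 1 and 0.829 in RGLS4326 mice of series 2. With library totals in place of scaling factors, the median of all genes moved to 0.33 in the disease contrast and the split of calls from 6746 higher and 6095 lower to 8970 and 4099; *Slc30a4* was then -0.06 and not called, still below that median. Library totals also moved lower calls in RGLS4326 vs UNT from 5772 to 3471 and higher calls from 6385 to 9148. Treatment calls over all genes, 2388 higher and 2892 lower, moved to 80 and 65 with the percentage of reads in no gene, to 179 and 153 without the 4 libraries, and to 2164 and 1901 in series 2. The replicate block kept 4 higher and 5 lower in the disease contrast and 2 higher and 1 lower on treatment, and changed no call of the 9 genes; same-numbered mice of PBS and RGLS4326 had a median correlation of 0.05, and 2 of 11 mice correlated best with their own number.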

Other observations

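The sexes, read from *Xist* and Y-linked genes, were both present in every group, and the 3 RGLS4326 mice of series 2 were all male. *Mt1* averaged 177 CPM in 6 male and 112 CPM in 5 female PBS mice, against 102 CPM in 5 male and 128 CPM in 6 female RGLS4326 mice. *Mt2* averaged 167 and 93.8 CPM in male and female PBS mice, against 94.0 and 117 CPM in RGLS4326 mice. The treatment difference was thus lower in males than in females by 0.98 for *Mt1* (edgeR interaction term, unadjusted p = 0.0127, adjusted p = 0.694) and by 1.15 for *Mt2* (unadjusted p = 0.0209, adjusted p = 0.694), which did not pass the adjustment over all genes. Over all genes, this test called 0 of 15644 genes and 938 had an unadjusted p under 0.05. None of the 9 genes passed the test of sex over the groups or of sex in any contrast.

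The SD of *Slc39a14* in UNT mice was 36.4% of its mean, that of the lowly expressed *Slc39a4* 42.0%, that of *Mt2* 39.2% and that of *Mt1* 26.0%, against 10.2% to 14.5% for *Slc39a5*, *Slc39a8*, *Slc39a10*, *Slc30a1* and *Slc30a4*.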
